A study of Arabidopsis thaliana with 13 samples.

Results

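A group of 6 calcium sensor genes of Arabidopsis thaliana, 3 named calmodulin-like genes (CML23, CML37 and CML38) and 3 genes that the annotation gives by locus (AT3G01830, AT4G27280 and AT5G39670), are described on every array of a study of the senescence regulators ANAC092 and ANAC059. They were chosen by their signal on these arrays, as calmodulin-like or EF-hand genes that move between induced and control seedlings or between leaf genotypes, so their own changes are given as a description and not as evidence. Each had 1 probe set annotated to it alone, which makes 6 probe sets of the 22746 examined and 6 of the 13356 genes that had a probe set of their own. The probe sets are 260135_at for CML23 (AT1G66400), 249197_at for CML37 (AT5G42380), 259879_at for CML38 (AT1G76650), 258947_at for AT3G01830, 253915_at for AT4G27280 and 249417_at for AT5G39670.

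Calcium ions carry signals in plant cells: touch, wounding, pathogens, cold or lack of oxygen raise free calcium in the cytosol, and proteins with EF-hand loops bind it, change shape and act on other proteins. Calmodulin is the conserved form of such a sensor. The calmodulin-like proteins of plants share its EF hands but have no enzyme activity of their own, and transcripts of many of them rise quickly after stress. CML23 acts with its close relative CML24 in flowering time and nitric oxide responses, CML37 is raised by wounding and acts in defence against feeding insects and in drought, and CML38 is raised by wounding and by low oxygen.

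All groups derive from the accession Col-0, and ANAC092 and ANAC059 are a pair of related NAC transcription factors that promote the ageing of leaves. Shoots were taken from 3-week-old seedlings after 5 h in 10 µM estradiol, a treatment that the controls received too: seedlings with an estradiol-inducible ANAC092 construct (3 arrays), with an estradiol-inducible ANAC059 construct (2 arrays) or with the empty inducible vector (3 arrays). Leaf 11 was taken from 38-day-old soil-grown wild type, from a T-DNA insertion line of ANAC059 and from a T-DNA insertion line of ANAC092, with 1 array each. The titles call the seedling arrays biological replicates, and neither the number of transgenic lines, the insertion alleles nor any pooling of plants is given in the sources used here.

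Signals are log2 values from RMA, which corrects background, gives the probe signals of a set's arrays the same distribution and then summarises each probe set. The summarised values need not share a distribution. RMA had been run on 3 sets of arrays apart: ANAC092 induced with empty vector 1 to 3, ANAC059 induced with empty vector 1 and 2, and the leaf arrays. Empty vector replicates 1 and 2 therefore appear in both seedling sets, and both inductions share these controls. Array medians were 7.55 to 7.71 in the seedling sets and 5.73 to 5.83 in the leaf set. Empty vector replicate 3 stood apart from replicates 1 and 2 (SD of the difference across probe sets 0.386 and 0.351, against 0.178 between replicates 1 and 2), as did ANAC092 induced replicate 2 from replicates 1 and 3 (0.364 and 0.343, against 0.129).

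Markers of leaf and shoot, root and dividing cells were read on the same arrays. Of 18 leaf and shoot markers 4 had a probe set of their own (RCA, PRK, PORB and LHCB4.2), and the log2 of their summed signal was 12.89 to 13.20 after ANAC092 induction against 13.20 to 13.48 on the controls, and 13.60 to 13.65 after ANAC059 induction against 13.23 to 13.32. It was thus higher on both ANAC059 induced arrays than on their controls, and no higher on any ANAC092 induced array than on the lowest control. PRK (phosphoribulokinase of the Calvin cycle) was 9.22 to 9.74 after ANAC092 induction against 10.05 to 10.14. PORB (a chlorophyll synthesis enzyme) was 10.57 to 10.91 against 11.13 to 11.21. RCA (Rubisco activase, 12.12 to 12.38 against 12.15 to 12.73) and LHCB4.2 (9.75 to 10.34 against 10.15 to 10.62) overlapped. After ANAC059 induction RCA was 12.84 to 12.95 against 12.20 to 12.33, and PRK was 10.18 to 10.26 against 10.13 to 10.17. There PORB (11.14 to 11.15 against 11.14 to 11.21) and LHCB4.2 (10.58 to 10.65 against 10.60 to 10.61) overlapped. In leaf 11 RCA had exactly the same value of 13.58 on each array, and PORB was at 9.87 to 9.91. The leaf arrays were normalized apart, so these levels are not ranked against the seedling arrays. Of 10 root markers 2 had a probe set: PYK10, also known from hypocotyls, was 11.77 to 11.88 after ANAC092 induction against 11.31 to 11.82, 11.70 to 11.88 after ANAC059 induction against 11.29 to 11.58, and 3.98 to 4.23 in leaf 11. EXPA7 of root hairs was dim on all seedling arrays (6.27 to 6.95). Summed, these root markers stood at 11.80 to 11.92 and 11.36 to 11.85 in the ANAC092 set and 11.73 to 11.91 and 11.34 to 11.62 in the ANAC059 set, induced arrays first. HTR12, the 1 measured marker of 5 for dividing cells, stood at 6.24 to 6.79 and 6.01 to 6.26 in the ANAC092 set and 6.29 to 6.30 and 5.98 to 6.16 in the ANAC059 set. No flower marker was measured.

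The 3' minus 5' signal of actin, which rises as RNA is degraded, was higher on induced than on control arrays in both sets by 1 actin pair (0.938 to 1.08 against 0.760 to 0.908 in the ANAC092 set, 1.01 to 1.06 against 0.779 to 0.880 in the ANAC059 set). A further actin pair overlapped in the ANAC092 set through empty vector replicate 3 (2.44 to 2.89 against 1.96 to 2.51), and was higher on both induced arrays in the ANAC059 set (2.45 and 2.59 against 2.03 and 2.26). The GAPDH pair overlapped in both sets (0.13 to 0.25 against -0.14 to 0.51, and -0.0062 and 0.057 against 0.030 and 0.452). The part of these markers and of RNA quality in the values below was not tested. No named probe set stood for ANAC092 or ANAC059, so the labels were not checked on the induced or disrupted gene.

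After ANAC092 induction 5 of the 6 genes were higher and 1, CML38, was lower. CML23, AT3G01830 and AT4G27280 were each between 2.61-fold and 3.03-fold higher, with every induced array above every control. CML37 and AT5G39670 were higher by 1.26-fold and 1.35-fold. In whole shoots, more cells that express a gene and more RNA per cell cannot be told apart.

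CML23 had signals of 10.36, 10.02 and 10.46 on ANAC092 induced replicates 1, 2 and 3 and of 8.70, 9.0 and 8.35 on the empty vector arrays. The lowest induced array lay 1.02 above the highest control. Its means were 10.28 ± 0.23 (SD, n = 3) and 8.68 ± 0.33 (SD, n = 3), a difference of 1.60 ± 0.19 (SE). Counted from the highest, this was number 93 among the 22746 changes.

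AT3G01830 stood at 8.31, 7.62 and 7.92 on the induced arrays and at 6.43, 6.73 and 5.95 on the controls. The gap between the groups was 0.88, and the difference of the means was 1.58 ± 0.24 (SE). Against empty vector replicate 3 alone it was 2.0, and against replicates 1 and 2 it was 1.36, so the size varied with the control while the direction held.

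AT4G27280 was nearly the same on the induced arrays, at 12.27, 12.37 and 12.27, and more variable on the controls, at 11.00, 11.29 and 10.47. The groups lay 0.98 apart, and the difference of the means was 1.38 ± 0.20 (SE). As for AT3G01830 and CML23, empty vector replicate 3 was the lowest control.

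CML37 was dim on all seedling arrays, with signals of 6.10, 6.32 and 5.99 after induction and 5.74, 5.93 and 5.72 on the controls, all below the median of 7.66 over the ANAC092 set. The induced arrays lay above the controls by only 0.053, and the difference was 0.34 ± 0.12 (SE). AT5G39670 overlapped between the groups: it stood at 8.39, 7.38 and 8.11 on the induced arrays and at 7.42, 7.58 and 7.57 on the controls. Induced replicate 2 was below all 3 controls, and the difference of 0.43 ± 0.24 (SE) came from replicates 1 and 3.

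CML38 ran the other way, with signals of 10.38, 10.20 and 9.95 after induction and 11.87, 11.58 and 10.56 on the controls. Every induced array was below every control, but by only 0.19, because empty vector replicate 3 was itself 1.16 below the mean of replicates 1 and 2. Only 1.27% of all probe sets were as far or farther below on that array. The difference was -1.16 ± 0.31 (SE) against all 3 controls, -1.55 against replicates 1 and 2, and -0.39 against replicate 3.

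Limma called 3 of the 6 genes higher after ANAC092 induction (adjusted p under 0.05), where 1.40% of all probe sets were called higher, and none lower, where 0.831% were. The induced arrays lay above all controls for 4 genes (7.98% of all probe sets) and below them for 1 (12.4%). Since the genes were chosen for moving in these arrays, nothing is read from these counts. The number of the 6 that was called was 1, 3 and 4 without empty vector replicate 1, 2 or 3 and 1, 2 and 1 without induced replicate 1, 2 or 3. The median change of the 6 genes was 0.91, and that of all probe sets was -0.03.

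**Figure D1:**
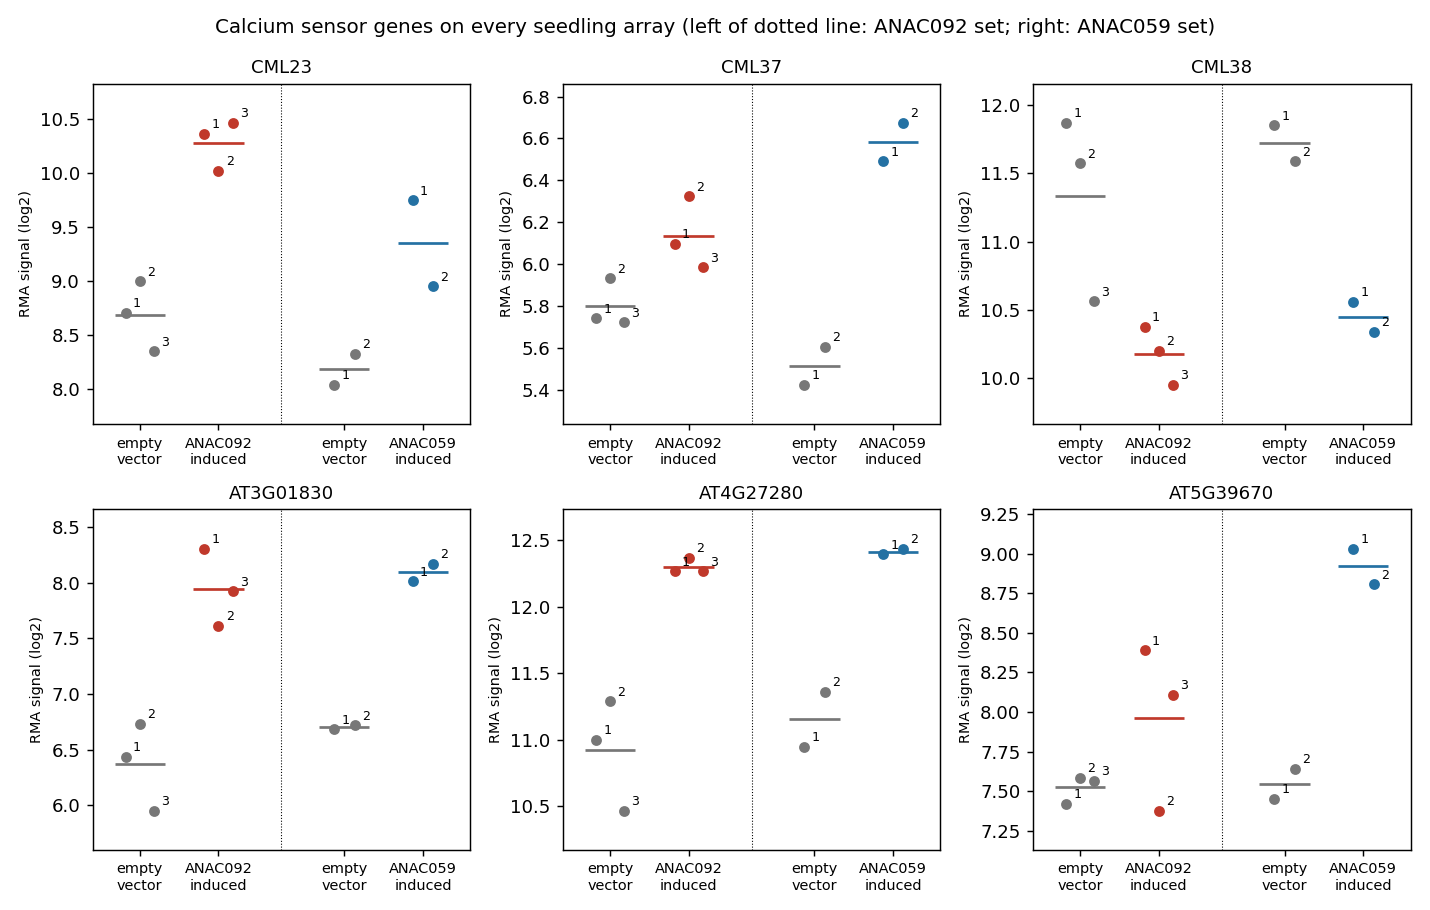
RMA signal (log2) of each gene on every seedling array, with the ANAC092 set left and the ANAC059 set right of the dotted line; points are arrays, small numbers their replicate, and bars group means. CML38 is the 1 gene that is lower after both inductions, and empty vector replicate 3 is its lowest control at 10.56.

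After ANAC059 induction the same 5 genes were higher and CML38 was lower, and every gene had its induced arrays on 1 side of both controls. The differences were of like size, between 1.07 for CML37 and 1.39 for AT3G01830, and -1.27 for CML38. AT3G01830, AT5G39670 and AT4G27280, known here only as EF-hand genes by locus, were at ranks 10, 13 and 16 among all 22746 changes counted from the highest.

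AT3G01830 stood at 8.01 and 8.17 on ANAC059 induced replicates 1 and 2 and at 6.68 and 6.72 on the controls, a difference of 1.39 ± 0.09 (SE, n = 2 per group). AT5G39670 stood at 9.03 and 8.81 against 7.45 and 7.64, a difference of 1.37 ± 0.12 (SE). The gap between the groups was 1.17 for AT5G39670, whose ANAC092 induced arrays overlapped their controls. AT4G27280 stood at 12.39 and 12.44 against 10.95 and 11.36, a difference of 1.26 ± 0.14 (SE).

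CML37 stood at 6.49 and 6.67 on the induced arrays and at 5.42 and 5.60 on the controls, and the difference of 1.07 ± 0.11 (SE) was 2.1-fold. These signals were again below the median of 7.60 over the set. CML23 had signals of 9.75 and 8.95 after induction and 8.04 and 8.33 on the controls. Its induced replicates spread the most among the 6 genes (SD 0.56, n = 2, against 0.16 or less for the others), and its difference was 1.17 ± 0.25 (SE). It was 0.77 without induced replicate 1 and 1.57 without induced replicate 2.

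CML38 stood at 10.56 and 10.34 after ANAC059 induction and at 11.85 and 11.59 on the controls, and the difference of -1.27 ± 0.13 (SE) was 2.41-fold. The controls of this set were empty vector replicates 1 and 2 only. Relative to the mean of these replicates within each set, CML38 was at -1.16 and -1.38 on the ANAC059 induced arrays, at -1.34, -1.52 and -1.77 on the ANAC092 induced arrays and at -1.16 on empty vector replicate 3, which carries neither factor. The other 5 genes did not share this: on empty vector replicate 3 AT4G27280, AT3G01830, CML23 and CML37 were at -0.68, -0.63, -0.50 and -0.12 and AT5G39670 at 0.06, while the induced arrays were above 0 for all 5 except AT5G39670 on ANAC092 induced replicate 2 (-0.13).

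Limma called 4 of the 6 genes higher after ANAC059 induction, where 1.65% of all probe sets were called higher, and 1 lower, where 1.34% were; CML23 was not called. Induced arrays lay above the controls for 5 genes (26.2% of all probe sets) and below them for 1 (26.8%). As before, nothing is read from these counts. The median change of the 6 was 1.21, against -0.01 over all probe sets.

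**Figure D2:**
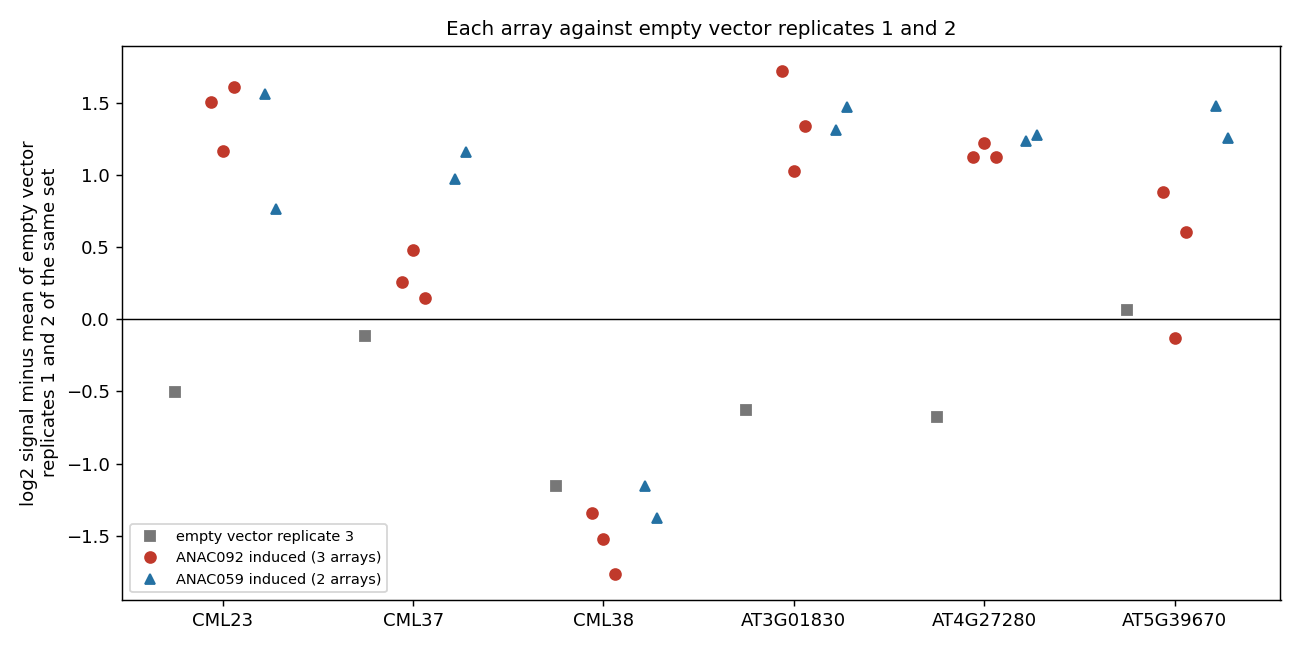
Log2 signal of each gene on each other seedling array minus the mean of empty vector replicates 1 and 2 of the same set (squares, empty vector replicate 3; circles, ANAC092 induced; triangles, ANAC059 induced). For CML38 empty vector replicate 3, at -1.16, lies beside the induced arrays, and for the other 5 genes it lies at 0.06 or below while all but 1 of the induced arrays lie above 0.

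The level of CML23 depended on the set in which an array had been normalized. Empty vector replicate 1 had a CML23 signal of 8.70 in the ANAC092 set and 8.04 in the ANAC059 set, and replicate 2 had 9.0 and 8.33. Only 0.0615% and 0.0747% of all probe sets moved as far from the median shift between the sets. CML37 moved by 0.32 and 0.33 in the same direction, AT3G01830 by -0.25 in replicate 1 only, and the other signals by 0.072 or less. Levels of CML23 and CML37 are therefore set side by side only within a set.

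In leaf 11 every one of the 6 genes was higher in the ANAC059 insertion line than in wild type, and the difference was widest for CML38. With 1 array per genotype there is no replicate check and no test. CML38 had signals of 5.61 in wild type, 6.56 in the ANAC092 insertion line and 8.15 in the ANAC059 insertion line. The last was 5.85-fold above wild type (2.55 on the log2 scale), rank 32 among 22746 probe sets counted from the highest. The wild type signal of CML38 lay below the median of 5.76 over the leaf set, so this fold starts from a dim signal. CML38 was thus lower than in replicates 1 and 2 of the controls when either factor was induced in seedlings, and higher in both insertion lines in leaves. Empty vector replicate 3, which carries neither factor, was itself at -1.16 relative to replicates 1 and 2. Against that array the change after ANAC092 induction was only -0.39.

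CML37 had leaf signals of 6.06, 6.45 and 7.65 in wild type, the ANAC092 line and the ANAC059 line, and AT3G01830 had 9.06, 9.14 and 10.54. Both differed from wild type by over 1 on the log2 scale in the ANAC059 line (1.58 and 1.48), and AT3G01830 differed by only 0.08 in the ANAC092 line. AT4G27280 followed the same order with 10.32, 10.71 and 11.23.

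AT5G39670 was at 8.87 in wild type, at exactly the same value in the ANAC092 line and at 9.45 in the ANAC059 line. Exactly equal values were common in this set of 3 arrays: 27.2% of probe sets had the same value in wild type and the ANAC092 line, and 22.1% in wild type and the ANAC059 line. CML23 was the 1 gene that was highest in the ANAC092 line, with 5.71 in wild type, 6.30 in the ANAC059 line and 6.52 in the ANAC092 line. Differences of CML23 to wild type were 0.59 and 0.81. Its wild type signal, too, lay below the leaf set median of 5.76.

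In the ANAC059 line 3 of the 6 genes were at least 1 above wild type on the log2 scale, as were 4.65% of all probe sets, and all 6 were above it to some degree, as were 30.7%. In the ANAC092 line none was at least 1 above (0.980% of all probe sets), and 5 were above at all (33.8%). The order wild type, ANAC092 line, ANAC059 line held for 4 of the 6 genes and for 9.67% of all probe sets. The leaf values also entered the choice of these genes, so the counts are a description.

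**Figure D3:**
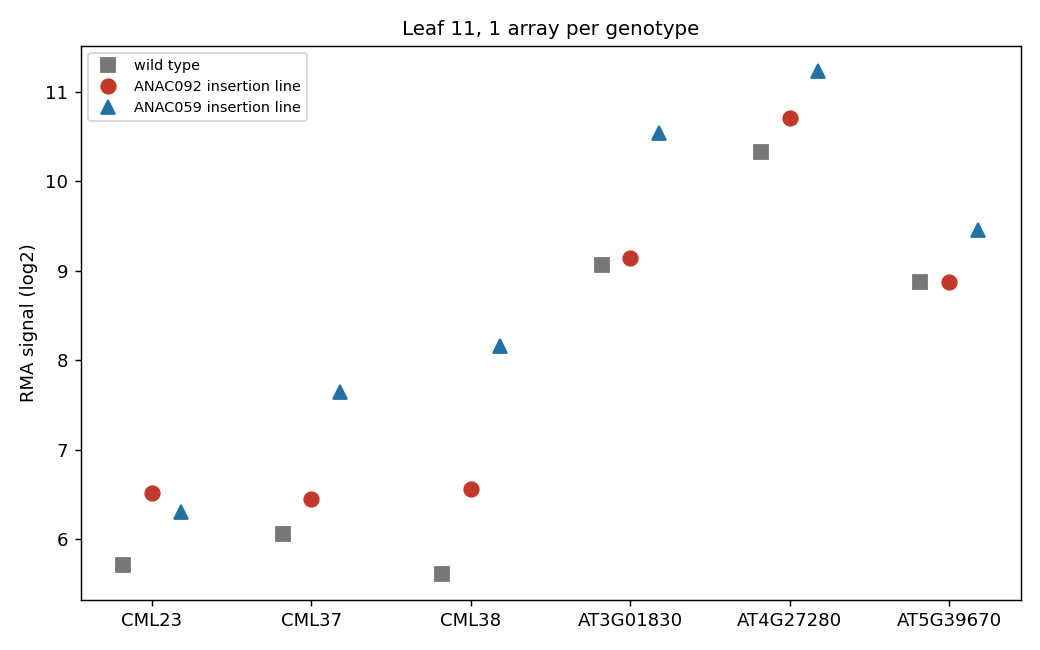
RMA signal (log2) of the 6 genes in leaf 11, with 1 array per genotype (squares, wild type; circles, ANAC092 insertion line; triangles, ANAC059 insertion line). The triangle is the highest symbol for every gene except CML23, and CML38 spans the widest range, from 5.61 to 8.15.

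The 6 genes did not vary as 1 group. Each signal was centred within its set, and Pearson's r was taken between genes as a description. The profiles share hybridisations, sets and the difference between induced and control arrays, which the coefficients carry. Over the 10 seedling profiles the 10 pairs without CML38 had r between 0.69 and 0.97. The highest value was that of AT3G01830 with AT4G27280. These profiles hold empty vector replicates 1 and 2 in both sets; over the 6 arrays of the ANAC092 set alone the same pairs had r between 0.18, for AT5G39670 with CML37, and 0.98, for AT3G01830 with CML23. CML38 had r between -0.74 and -0.70 with the other 5 over the seedling profiles and between -0.69 and -0.49 over the ANAC092 set alone. With the leaf arrays included (13 profiles) the pairs without CML38 had r between 0.56 and 0.95, and those with CML38 between -0.46 and 0.04, since in the leaf CML38 and the others were higher together.

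**Figure D4:**
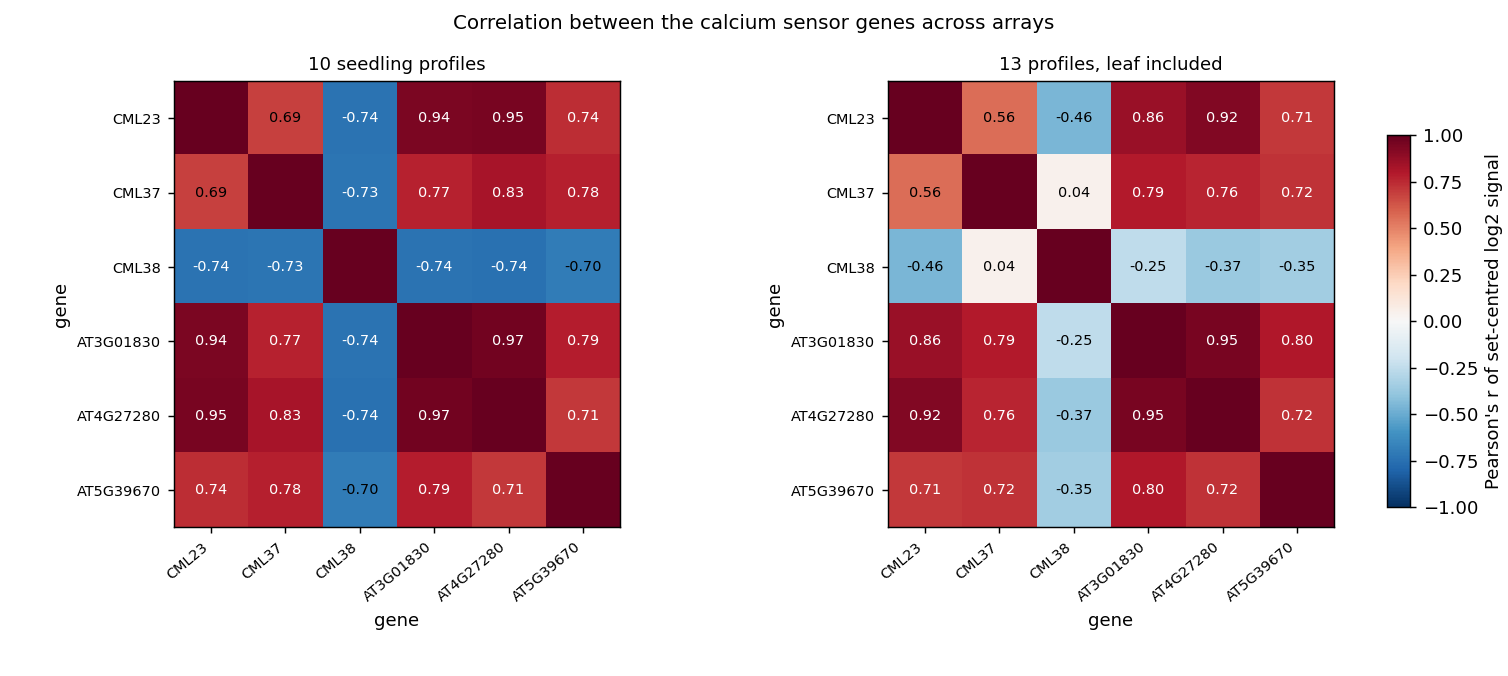
Pearson's r between the 6 genes, over the 10 seedling profiles (left) and over all 13 profiles (right), after centring each gene within its set. CML38 has negative r with every other gene in seedlings, between -0.74 and -0.70, and r closer to 0 once the leaf arrays are included.

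Genes with profiles most like these were taken by Pearson's r over the 13 profiles among 13507 other probe sets of 1 gene. Closest to the mean of the 6 were AT5G16200 (0.96), AT4G27657 (0.94), STZ (0.93), AT5G17350 (0.90) and AT4G27652 (0.90). STZ encodes a zinc finger protein of abiotic stress responses, and AT5G17350 was at 1.64 after ANAC059 induction. STZ was at 0.45 and 0.54 after ANAC092 and ANAC059 induction and 1.27 above wild type in the ANAC059 insertion line. The single gene closest to each member was AT5G61880 for both AT3G01830 and AT4G27280 (0.95 each), AT2G02880 for AT5G39670 (0.89), AT5G46230 for CML23 (0.96), AT2G31410 for CML37 (0.95) and AT2G39400 for CML38 (0.95). AT2G39400 was lower after both inductions (-0.79 and -0.94) and higher in both insertion lines (1.60 in the ANAC059 line and 0.76 in the ANAC092 line). All these genes were picked for likeness over the same profiles, so shared directions follow from the choice. Relative to empty vector replicates 1 and 2, AT2G39400 was at -0.26 on replicate 3, where CML38 was at -1.16. Against replicate 3 alone AT2G39400 was at -0.62 after ANAC092 induction. Few of these matches were kept under another measure: of 17 matches, 4 were found again by rank correlation and 1 over the seedling profiles alone.

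Other genes of calcium signalling were taken by family name, without the genes described above. CML23, CML37 and CML38, chosen because they move, are thus missing from the calmodulin-like list. AT3G01830, AT4G27280 and AT5G39670, chosen in the same way as calmodulin-like or EF-hand genes, were left out as well. The list was made by symbol or synonym, so calmodulin-like genes without such a name are not in it. What remains of the calmodulin-like list is not free of selection and may be incomplete. Its low count is partly set by leaving out genes that move. After ANAC092 induction 0 of the other genes passed the test, where 1.40% of all probe sets were called higher and 0.831% lower. After ANAC059 induction 1 passed, where 1.65% were called higher and 1.34% lower. Of 13 lists, 4 had a gene with a probe set of its own, 29 genes in all: 5 further calmodulin-like genes, 15 IQD genes for proteins with a calmodulin-binding domain, 8 GLR genes for glutamate receptor-like cation channels and the calmodulin methyltransferase gene AT4G35987. Calmodulins, touch genes, calcium-dependent protein kinases, CBL sensors, CIPK kinases, CAMTA and CBP60 factors, pumps and exchangers, and annexins had no member with a probe set named for it alone and are not analysed here.

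After ANAC092 induction limma called 0 of the 29 genes in either direction (adjusted p over all probe sets under 0.05; 3 had an unadjusted p under 0.05, as did 12.0% of all probe sets), and with a prior variance that follows signal level it called 0 as well. Their median change was -0.06, against -0.03 over all probe sets. The widest change was that of IQD23, at -0.61 ± 0.19 (SE, limma adjusted p = 0.231). Empty vector replicate 3 was the highest control for IQD23, at 9.20 against 8.45 and 8.59, and without that array the change was -0.38. Among the 5 further calmodulin-like genes the widest was that of CML41, at 0.40 ± 0.17 (SE, limma adjusted p = 0.400). Among the GLR genes it was that of GLR3.3, at -0.32 ± 0.25 (SE). GLR3.3 stood at 6.95 on induced replicate 2, against 7.81 and 7.83 on replicates 1 and 3, and without replicate 2 its change was -0.03. AT4G35987 was at -0.01. CML41 overlapped between the groups, with induced signals of 8.64, 8.15 and 8.33 and control signals of 7.81, 8.24 and 7.88.

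After ANAC059 induction 1 of the 29 passed, in the higher direction, and 5 had an unadjusted p under 0.05 in limma, as did 20.4% of all probe sets. A count of 1 in 29 is not read as more than the 1.65% called higher overall. The median of the 29 was -0.00053, against -0.01 over all probe sets. IQD24 rose by 1.13 ± 0.09 (SE, n = 2 per group, limma adjusted p = 0.00294), from 7.50 and 7.47 on the controls to 8.65 and 8.58. In the ANAC092 set, however, IQD24 stood at 8.50 on empty vector replicate 3, against 7.38 and 7.47 on replicates 1 and 2, so that array departed by 1.08 in the same direction. On the ANAC092 induced arrays IQD24 was at 8.28, 7.83 and 8.03.

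CML41 was the listed calmodulin-like gene outside the 6 with the widest change after ANAC059 induction, with 8.63 and 8.39 against 7.70 and 8.07. The difference of 0.63 ± 0.15 (SE) did not pass (limma adjusted p = 0.0852). The other 4 lay between -0.28 and -0.04. AT1G76640, which the gene table also lists as CML39, is the gene next to CML38 on the chromosome in the assembly TAIR10.1; it was at -0.26 and -0.13 after ANAC092 and ANAC059 induction, neither of which passed, and had the same leaf signal of 4.32 in all 3 genotypes. The gene table gives CML39 as a synonym of CML37 too, so that name is not used here for a value. The 8 GLR genes lay between -0.20 for GLR1.4 and 0.18, and AT4G35987 was at 0.37; none passed.

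**Figure D5:**
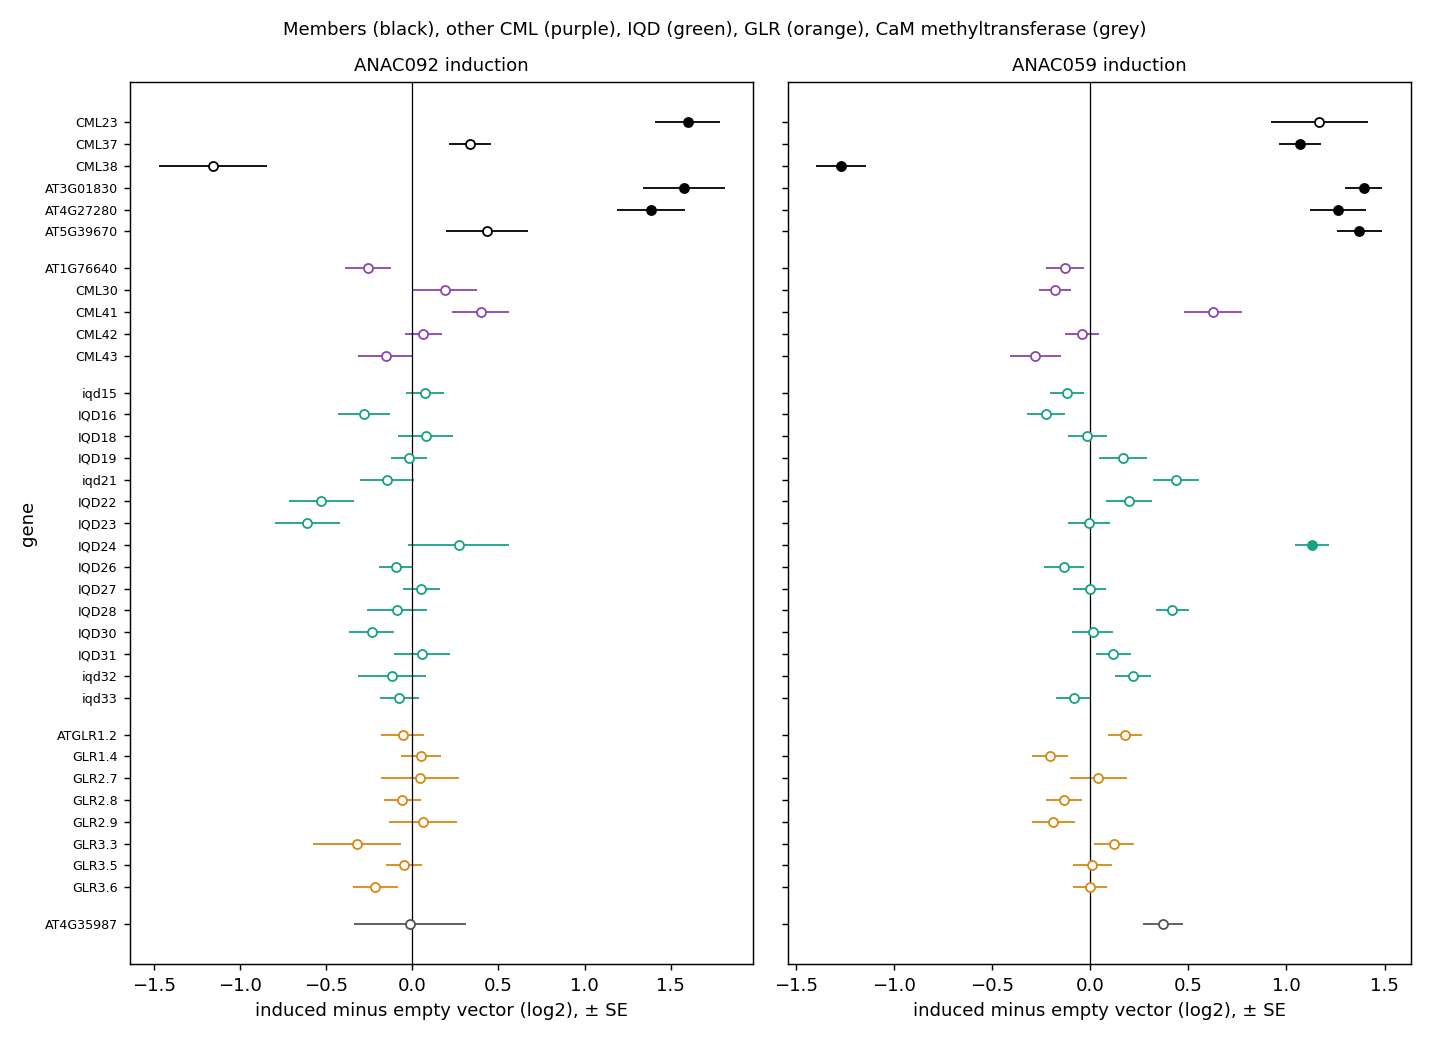
Induced minus empty vector signal (log2, ± SE of limma) for the 6 genes (black) and the 29 other calcium genes (purple, calmodulin-like; green, IQD; orange, GLR; grey, AT4G35987); filled points were called by limma. The 6 genes were chosen because they move; of the others only IQD24 after ANAC059 induction, at 1.13, is filled.

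In leaf 11 the 29 genes had a median difference of 0 to wild type in both insertion lines, as had all probe sets. Exactly equal values were common (22.1% of all probe sets in the ANAC059 line and 27.2% in the ANAC092 line). IQD24 and GLR3.3 had equal values in all 3 genotypes, so the median is not read as a lack of change. In the ANAC059 line 2 were at least 1 above wild type (4.65% of all probe sets were) and none at least 1 below (0.611% were), and in the ANAC092 line 1 was above (0.980% were) and 1 below (0.822% were). CML41, at 7.79 in wild type, was 1.03 higher in the ANAC059 line and 0.39 lower in the ANAC092 line. GLR2.8 rose more in the ANAC059 line, by 1.41. In the ANAC092 line the genes past 1 were IQD21 (1.01) and GLR2.7 (-1.20). Of the 5 further calmodulin-like genes 2 were above wild type in each line, and CML43 was lowest, at -0.81 (ANAC059 line) and -0.61 (ANAC092 line).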

How the data were processed

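The values as deposited are log2 signals. The authors used RMA, per the submitters' processing notes, on 3 sets of arrays apart, per the labels; the RMA version is not known from the sources used here. Of 22810 probe sets 64 controls were left out. Genes were named from the platform annotation where a probe set had exactly 1 gene (13513 probe sets), and loci, synonyms and neighbours were looked up in the RefSeq gene table of TAIR10.1.

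In each seedling set a limma model (version 3.58.1, R 4.3.3, lmFit then eBayes) held the group and nothing else; tests were two-sided, p-values were adjusted by Benjamini-Hochberg over all 22746 probe sets, and the threshold was 0.05. The code was tested on simulated data. Errors with changes are limma's moderated standard errors. The leaf set had no replicates and was not tested. The number of arrays limits the precision.

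The 6 genes, the lists and the tests were chosen with earlier results of these data known. Families were defined by symbol or synonym; the gene table has no product text, so EF-hand genes by description were sought in its synonyms. Named genes were the 6, up to 4 passing genes of each family or else the gene with the widest change, and the 2 genes most like each member and 5 most like their mean. IQD22, IQD28, AT1G76640 and, for the leaf, GLR2.7, GLR2.8, IQD21 and CML43 were named after their values were seen. Same-numbered arrays of a set are not paired by the labels: their deviations from the group means correlated at -0.11, 0.27 and 0.10 in the ANAC092 set and 0.03 in the ANAC059 set. Promoter and protein sequences were not analysed here.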

Additional observations from a re-analysis of the deposited data

Results flagged for a closer look

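IQD22, a gene for a calmodulin-binding protein, lay in opposite directions after the 2 inductions: it was at -0.53 after ANAC092 induction, with every induced array below every control, and at 0.20 after ANAC059 induction, with every induced array above both controls. The difference between the inductions was not tested, and the inductions share controls. Neither change passed in limma (adjusted p 0.313 and 0.385). Empty vector replicate 3, a control of the ANAC092 set only, was 0.67 above the mean of replicates 1 and 2 for this gene.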

How the results depend on the processing

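The direction of change of each of the 6 genes after each induction was the same under every alternative run. Changes after ANAC092 induction ranged from 1.43 to 1.93 for CML23, 1.36 to 2.0 for AT3G01830, 1.16 to 1.84 for AT4G27280, 0.22 to 0.72 for AT5G39670, 0.24 to 0.41 for CML37 and -1.55 to -0.39 for CML38, the last against empty vector replicate 3 alone. Of 507 probe sets called after ANAC092 induction, leaving out 1 array gave 209 to 787 and averaging induced replicates 1 and 3 gave 242; of 679 after ANAC059 induction, leaving out 1 array gave 161 to 444. The 787 came from leaving out empty vector replicate 3, and leaving out any other array of that set gave fewer than 507. All these runs used fewer arrays, and the cause was not tested. Among the 29 other calcium genes, 2 (IQD22 and IQD23) were called after ANAC092 induction as lower against empty vector replicate 3 alone (0.198% of all probe sets were; with 1 control array the spread came from the induced arrays), and 2 (IQD24 and IQD28) after ANAC059 induction as higher without dim probe sets (4.97% were), where fewer were tested. Leaving out 1 array gave 0 after ANAC092 and 1 after ANAC059 induction each time. With the replicate number as a block, limma called 553 probe sets after ANAC092 induction and 0 after ANAC059 induction (4131 with an unadjusted p under 0.05), and 0 other calcium genes after either; IQD24 then had an adjusted p of 0.0568 in limma, against 0.00683 to 0.0261 without single arrays, where the single array left in a group took its spread from the other one. The block fit of the ANAC059 set has 1 residual degree of freedom, and the samples share only a number. Changes that turned direction had not passed in either setting: IQD24 after ANAC092 induction was at 0.27 against all controls and -0.45 against empty vector replicate 3 alone, and leaving out 1 array gave -0.20 to 0.36 for AT4G35987 and -0.011 to 0.14 for GLR1.4 after ANAC092 induction and -0.11 to 0.092 for IQD23 after ANAC059 induction; the cause was not tested. Quantile normalization moved the leaf difference of CML38 in the ANAC059 line from 2.55 to 2.42, that of CML37 to 1.42 and that of CML23 to 0.44. Of the 17 closest profiles, 4 were found again by rank correlation and 1 over the seedling profiles. No detection calls were used. Whether the dim signals of CML37, and the wild type leaf signals of CML38 and CML23, exceed background is therefore unknown.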
